A study of Mus musculus with 12 samples.

Results

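The 10 transcription factors examined here belong to the macrophage lineage and were followed through bulk RNA sequencing of Cx3cr1+ lung macrophages. They are Spi1, Cebpa, Cebpb, Irf4, Irf8, Klf2, Klf4, Zeb2, Egr2 and Bhlhe40, chosen by symbol from a table of 52636 genes. All 10 were matched to 1 gene each, and all 10 were among the 16679 genes that passed the filter on low counts. The study has 3 groups of 4 libraries. Bleomycin KO libraries came from bleomycin-treated mice with the genotype label IL4Ra KO. Bleomycin WT libraries came from bleomycin-treated mice with the label IL4Ra WT, and saline WT libraries from saline-treated mice with the label IL4Ra WT. Bleomycin is a drug given to mice to injure the lung and bring on scarring, and IL4Ra is a receptor subunit through which both IL-4 and IL-13 signal. The labels give neither strain, age, dose and time after treatment nor how, or with which Cre driver if any, the receptor was deleted, and no saline KO group was analysed here. They also do not say that the libraries of a group come from separate animals, so every p-value refers to the spread among these libraries alone, and that spread could be technical.

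Macrophages acquire their identity in layers. PU.1, the product of Spi1, is an ETS-family factor that opens macrophage enhancers together with the C/EBP proteins, which are basic leucine zipper factors, and with IRF8, an interferon regulatory factor. On this base, factors such as IRF4, the Krüppel-like zinc finger proteins KLF2 and KLF4, the zinc finger repressor ZEB2, EGR2 and the basic helix-loop-helix repressor BHLHE40 shape what a macrophage does in its tissue. In lung macrophages, C/EBPβ, EGR2, ZEB2 and BHLHE40 are each known to take part in the alveolar macrophage programme, and IRF4, KLF4, C/EBPβ and EGR2 are linked to the response to IL-4.

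Depth differed between libraries. Total counts were 8514384 to 16842991 in bleomycin KO, 9600870 to 18051113 in bleomycin WT and 60598 to 10168525 in saline WT. Saline WT 2 was the library with 60598 counts, and 3 counts in it were worth 32.4 CPM (counts per 1000000, scaled between libraries by TMM), against 0.185 to 0.730 CPM in the other 11. Bleomycin WT 4 also stood apart, with the lowest scaling factor (0.579) and a highest Spearman correlation with any other library of 0.730 across genes; this was 0.498 for saline WT 2, 0.658 for saline WT 1 and 0.865 to 0.986 for the other 9. The targeted gene, Il4ra, was not called lower in KO libraries, with 332 ± 104 CPM in bleomycin KO, against 355 ± 203 CPM in bleomycin WT, and, in saline WT, 177 ± 127 CPM (mean ± SD of 4 libraries), with a log2 fold change of bleomycin KO over bleomycin WT of -0.09 (95% interval -1.33 to 1.15). The labels do not say which part of the gene was deleted, and a count over the whole gene can miss a partial deletion, so this value does not check the label. Below, KO stands for libraries with that label. None of the 16 macrophage markers examined was at 0 throughout a group, and Cx3cr1 itself ranged from 86.2 to 121 CPM in bleomycin KO, from 7.46 to 113 CPM in bleomycin WT and from 98.1 to 940 CPM in saline WT.

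The 10 factors kept their detection in every group, and the text below gives their level in each library. In bleomycin WT against saline WT, 8 of the 10 had a fitted log2 fold change above 0, with a median of 0.92; over all 16679 genes 52.9% were above 0 and the median was 0.08. The largest differences were in Cebpa, Cebpb and Klf4. For Cebpa, Klf4 and Zeb2 the lowest bleomycin WT library exceeded the highest saline WT library in TMM-scaled CPM. The saline WT 2 values of these 3 rest on 5, 4 and 20 counts, and its scaling factor of 1.54 lowers them. As shares of total counts they lie above bleomycin WT 1 for Cebpa and Zeb2 and above bleomycin WT 3 for Klf4. By library totals the 2 groups would thus overlap for all 3. No factor reached an adjusted p under 0.05 by the quasi-likelihood test of edgeR, adjusted by Benjamini-Hochberg over all genes (0 of 10, with adjusted p from 0.244 to 0.989), while 0.024% of all genes tested passed on the higher side and 0% on the lower side. At an unadjusted p under 0.05, 4 of the 10 were higher and 0 lower, against 8.47% and 6.19% of all genes. The groups did not overlap for 3 of the 10, all higher, against 4.93% of all genes higher and 0.929% lower. DESeq2, limma-voom and limma-voom with quality weights also called 0 of the 10, against 512, 6 and 319 of the 16679 genes tested.

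In bleomycin KO against bleomycin WT no factor separated the groups. Their median log2 fold change was -0.14, against -0.01 over all genes, with 4 above 0 and 6 below (49.3% of all genes were above 0). Again 0 of the 10 passed (edgeR adjusted p 0.9998 for each), as did 0% of all genes in either direction. At an unadjusted p under 0.05 there were 0 of 10, against 0.186% of all genes higher and 3.69% lower, and the libraries of the 2 groups overlapped for all 10, while 0.905% of all genes lay wholly higher and 0.594% wholly lower. In bleomycin KO against saline WT the median was 0.48, against 0.04 over all genes, 8 of the 10 were above 0 (51.7% of all genes), and 0 of the 10 passed (edgeR adjusted p 0.547 to 0.942), against 0.018% of all genes on the higher side and 0% on the lower side. Egr2 and Bhlhe40 were the 2 factors whose bleomycin KO libraries all lay above the saline WT libraries in TMM-scaled CPM, and 8.17% of all genes did so. None lay wholly lower (1.04% of all genes). By library totals saline WT 1 would lie above bleomycin KO 3 for Bhlhe40. Egr2 was also the 1 factor with an unadjusted p under 0.05, on the higher side, against 2.96% of all genes higher and 6.07% lower. Both comparisons with saline WT share the saline WT libraries, and each bleomycin group enters 2 of the 3 comparisons. In bulk RNA, fewer cells of a type and less RNA per cell cannot be told apart.

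With saline WT 2 and bleomycin WT 4 left out, 10 libraries and 18812 genes remained. In bleomycin WT against saline WT, 0 of the 10 factors then passed the adjusted test (edgeR), against 0.287% of all genes higher and 0.144% lower. At an unadjusted p under 0.05, Cebpa, Cebpb, Zeb2 and Egr2 were higher and Spi1 lower, against 6.49% and 7.56% of all genes, and Cebpa, Cebpb, Klf4 and Zeb2 lay wholly higher, against 10.9% of all genes higher and 9.72% lower. The fitted change was above 0 for 8 of the 10, against 44.1% of all genes, with a median of 0.70 against -0.14. In bleomycin KO against saline WT, 0 of the 10 passed (0.377% of all genes passed higher and 0.266% lower). There Egr2 was higher and Spi1 lower at an unadjusted p under 0.05 (6.35% and 10.5% of all genes), Egr2 and Bhlhe40 lay wholly higher (8.14% of all genes higher, 7.89% lower), and 8 of the 10 were above 0, against 43.9% of all genes, with a median of 0.50 against -0.15. In bleomycin KO against bleomycin WT, 0 of the 10 and 0% of all genes passed. There, 0 of the 10 had an unadjusted p under 0.05 (0.255% of all genes higher, 0.664% lower), none was wholly apart (1.36% higher, 1.82% lower), and 3 were above 0, against 47.6% of all genes.

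**Figure D1:**
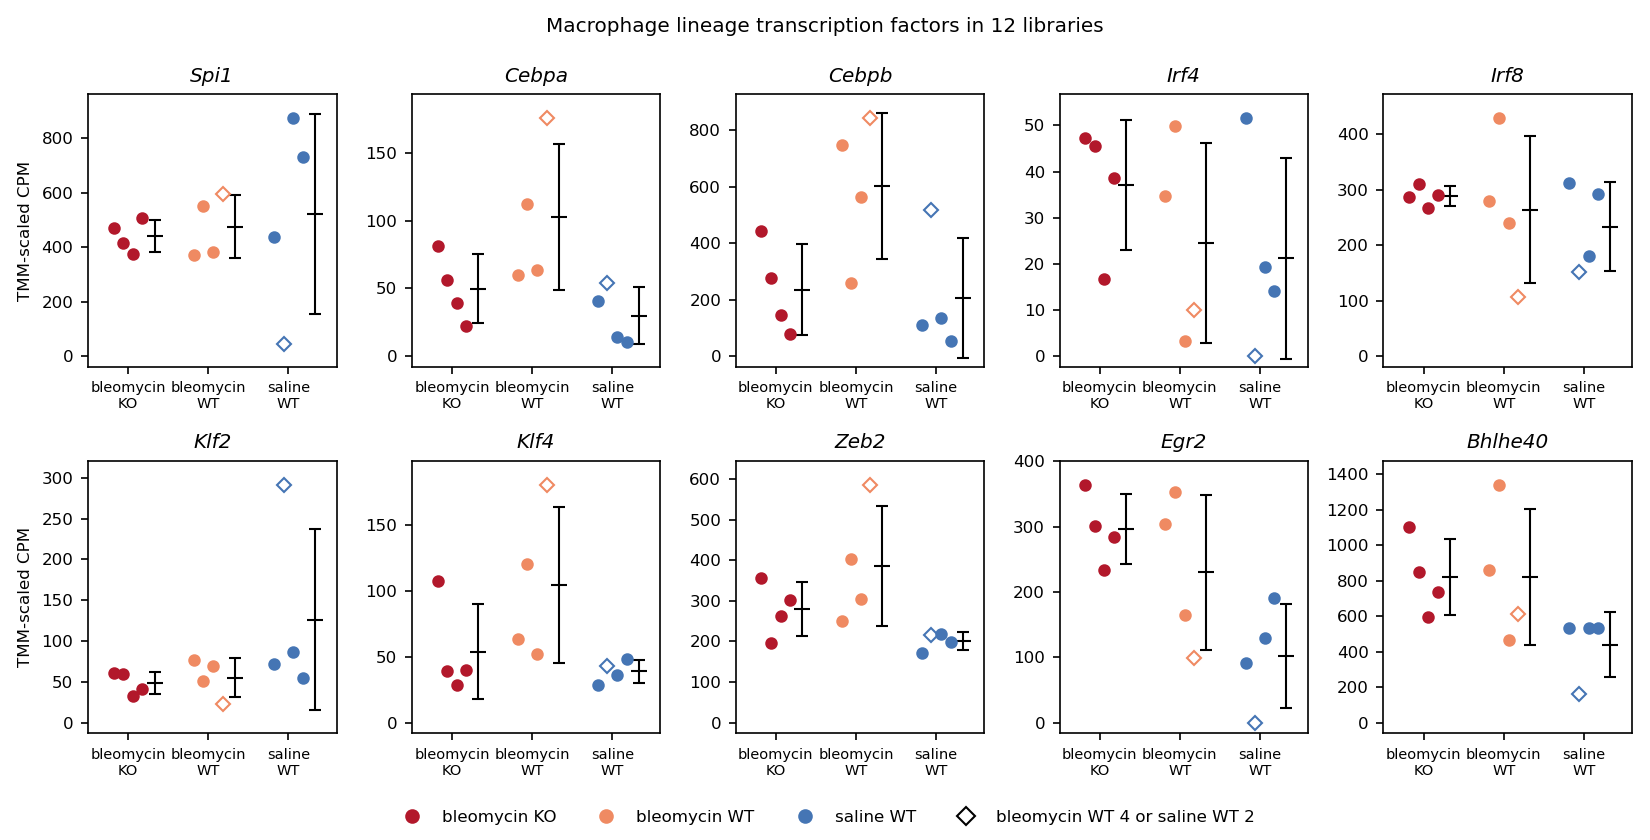
TMM-scaled CPM (linear axis, own scale per panel) of each factor in bleomycin KO, bleomycin WT and saline WT. Each point is a library, open diamonds are bleomycin WT 4 and saline WT 2, and the black bar and whiskers are the mean and SD of 4 libraries. Cebpa, Klf4 and Zeb2 have all bleomycin WT points above all saline WT points, and Egr2 and Bhlhe40 have all bleomycin KO points above all saline WT points.

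The promoters of 4 of these factors are shown because they separate the groups in TMM-scaled CPM, Cebpa, Klf4 and Zeb2 between bleomycin WT and saline WT and Egr2 between bleomycin KO and saline WT. The sequences are from RefSeq (GRCm38.p6), which had 8 of the 10 factors, and run 5′ to 3′ along the gene from 250 bases before the start to 50 bases after it. Bhlhe40, which also separated bleomycin KO from saline WT, had no promoter entry. Capitals mark matches, on either strand, to motifs of the factors themselves and to 2 core promoter elements. The windows are chr7:35119043-35119342 (plus strand) for Cebpa, chr4:55532426-55532725 (minus strand) for Klf4, chr2:45117393-45117692 (minus strand) for the first Zeb2 start and chr10:67535249-67535548 (plus strand) for the first Egr2 start.
Cebpa: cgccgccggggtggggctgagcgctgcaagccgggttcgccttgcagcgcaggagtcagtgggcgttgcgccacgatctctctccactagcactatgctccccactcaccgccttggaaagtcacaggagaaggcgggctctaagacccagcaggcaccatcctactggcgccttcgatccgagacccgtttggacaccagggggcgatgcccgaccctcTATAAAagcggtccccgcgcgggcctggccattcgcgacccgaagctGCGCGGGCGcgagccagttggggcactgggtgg
Klf4: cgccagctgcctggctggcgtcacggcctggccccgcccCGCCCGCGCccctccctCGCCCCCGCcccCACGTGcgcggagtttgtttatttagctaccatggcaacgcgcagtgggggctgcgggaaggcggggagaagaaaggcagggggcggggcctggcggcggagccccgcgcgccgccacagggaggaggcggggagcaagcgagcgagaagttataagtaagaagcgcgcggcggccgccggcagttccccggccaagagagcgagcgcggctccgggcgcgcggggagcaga
Zeb2: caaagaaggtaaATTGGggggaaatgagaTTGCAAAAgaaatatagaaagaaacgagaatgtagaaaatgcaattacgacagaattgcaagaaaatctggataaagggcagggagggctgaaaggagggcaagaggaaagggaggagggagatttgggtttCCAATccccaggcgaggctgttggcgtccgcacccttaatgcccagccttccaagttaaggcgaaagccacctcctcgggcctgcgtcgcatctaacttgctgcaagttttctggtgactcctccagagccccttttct
Egr2: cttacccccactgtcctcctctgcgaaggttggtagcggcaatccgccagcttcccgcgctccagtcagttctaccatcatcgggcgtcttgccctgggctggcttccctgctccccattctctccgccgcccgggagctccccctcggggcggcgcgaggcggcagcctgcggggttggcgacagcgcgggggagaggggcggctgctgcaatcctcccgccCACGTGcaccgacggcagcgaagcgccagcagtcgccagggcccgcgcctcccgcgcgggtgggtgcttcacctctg

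The motifs searched were GAGGAAGT for PU.1, TTGCNNAA for C/EBP, GAAANNGAA for IRF, CCACACCC for KLF, GCGNGGGCG for EGR, CACCTG for ZEB2, CACGTG for BHLHE40, the CCAAT box and the TATA box TATAAA. The matches in these 4 windows do not overlap each other. Positions count from 1 at the start site, with -1 the base before it, and give the first base of the match along the gene. The EGR letters stood once in the Cebpa window, at 18, and at 2 places in the Klf4 window, at -211 and -194; the Klf2 window held them too, and 5.55% of all 32851 promoter windows do. Klf4 held CACGTG at -182 and Egr2 at -27, against 7.15% of all windows. Zeb2 held the C/EBP letters at -221, against 10.8% of all windows, and CCAAT at -89 and -238, against 37.4%. Cebpa held TATAAA at -30, against 13.6%. G and C made up 67.3% of the Cebpa window, 74.3% of the Klf4 window, 49.3% of the Zeb2 window and 72.0% of the Egr2 window, and 52.7% of the median window. None of the 4 windows held the PU.1, IRF, KLF or ZEB2 letters, found in 3.2%, 8.56%, 3.56% and 20.2% of all windows. Later starts of Zeb2 and Egr2 are not printed. Of these, Egr2 start 2 held the IRF letters at -197, and Egr2 starts 3, 4 and 5 held CCAAT at -121, -122 and -182. These matches are a description of letters, not of binding.

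Levels between genes were compared per kb of exon. In bleomycin KO, Bhlhe40 (259 ± 67.8 CPM per kb), Spi1 (217 ± 28.6) and Cebpb (156 ± 107) were the 3 highest. In bleomycin WT they were Cebpb (401 ± 171), Bhlhe40 (259 ± 121) and Spi1 (234 ± 56.5). In saline WT they were Spi1 (257 ± 180), Bhlhe40 (139 ± 58.3) and Cebpb (136 ± 141), all SD, n = 4. Neighbours within that top 3 differed by less than the larger of their SDs in each group. Egr2 and Irf8 came next in both bleomycin groups, with 92.9 ± 16.9 and 83.9 ± 5.23 CPM per kb in bleomycin KO and 72.2 ± 37.2 and 76.8 ± 38.5 CPM per kb in bleomycin WT. In saline WT, Klf2 and Irf8 took these places with 68.4 ± 60.2 and 68.0 ± 23.2 CPM per kb, and Egr2 stood at 32.2 ± 25.0 CPM per kb. The Klf2 value there rests on saline WT 2, in which 27 counts made 292 CPM. Cebpa, Klf2, Klf4 and Zeb2 were at 17.8 to 26.2 CPM per kb in bleomycin KO and at 29.7 to 39.0 CPM per kb in bleomycin WT, with neighbours differing by less than the larger of their SDs. Irf4 was lowest in all 3 groups, at 7.77 ± 2.95 CPM per kb in bleomycin KO, 5.14 ± 4.54 in bleomycin WT and 4.45 ± 4.58 in saline WT.

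**Figure D2:**
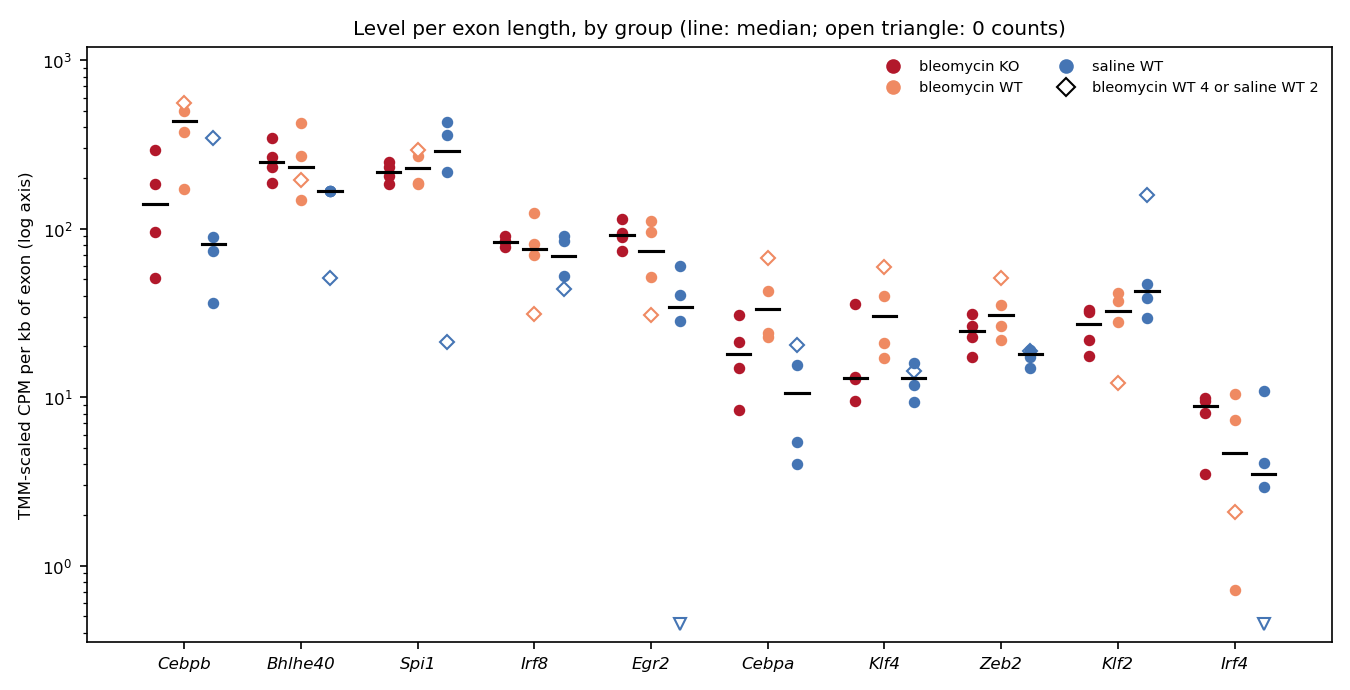
Level of each factor as TMM-scaled CPM per kb of exon (log axis), ordered by the bleomycin WT mean. Points are libraries, lines are medians of 4, open diamonds are bleomycin WT 4 and saline WT 2, and open triangles mark libraries with 0 counts; Bhlhe40, Spi1 and Cebpb sit at the top in all 3 groups and Irf4 at the bottom.

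Spi1 (ENSMUSG00000002111, chromosome 2, 91082390 to 91115756, GRCm38, plus strand) encodes PU.1, the factor without which macrophages are not formed. It had 470, 417, 375 and 507 CPM in bleomycin KO 1 to 4, 373, 551, 381 and 596 CPM in bleomycin WT 1 to 4, and 439, 43.2, 874 and 733 CPM in saline WT 1 to 4. The bleomycin libraries lay close together, while saline WT spanned a 20.2-fold range and its lowest library, saline WT 2, held 4 counts. The log2 fold change of bleomycin WT over saline WT was -0.15 (SE 0.57, 95% interval -1.37 to 1.07, edgeR adjusted p 0.935), and that of bleomycin KO over bleomycin WT was -0.10 (SE 0.57), or 0.13 with library totals. In the 10 libraries the first of these was -0.67 (95% interval -1.24 to -0.10, edgeR adjusted p 0.295), with means of 435 ± 95.5 CPM in bleomycin WT, against 691 ± 211 CPM in saline WT (SD, 3 libraries each). Its direction did not hold in every fit: it was 0.31 without saline WT 3.

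Cebpa (ENSMUSG00000034957, chromosome 7, 35119293 to 35121928, plus strand) is a gene of 1 exon for C/EBPα, which partners PU.1 in early myeloid cells. It had 81.5, 56.2, 39.5 and 22.1 CPM in bleomycin KO 1 to 4, 59.7, 112, 63.7 and 176 CPM in bleomycin WT 1 to 4, and 41.1, 54.0, 14.4 and 10.6 CPM in saline WT 1 to 4. Bleomycin WT was wholly above saline WT in TMM-scaled CPM, by a narrow margin between bleomycin WT 1 and saline WT 2, whose value rests on 5 counts. By library totals saline WT 2 would lie above bleomycin WT 1. The fitted log2 change of bleomycin WT over saline WT was 1.94 (SE 0.68, 95% interval 0.50 to 3.38, p 0.0115, edgeR adjusted p 0.244). Across the alternative settings it ranged from 1.33 to 2.40 and its adjusted p from 0.0544 to 0.624. The bleomycin KO libraries overlapped both other groups, with log2 fold changes of -1.04 (SE 0.63) over bleomycin WT, or -0.65 (SE 0.54) in the 10 libraries, and 0.90 (SE 0.66) over saline WT.

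Cebpb (ENSMUSG00000056501, chromosome 2, 167688915 to 167690418, plus strand), also of 1 exon, encodes C/EBPβ, an activator of Arg1 and of genes of inflammation. It had 443, 277, 144 and 76.9 CPM in bleomycin KO 1 to 4, 748, 259, 562 and 842 CPM in bleomycin WT 1 to 4, and 111, 519, 134 and 54.5 CPM in saline WT 1 to 4. Bleomycin WT lay above saline WT 1, 3 and 4 in every library, and saline WT 2 (48 counts) lay inside the bleomycin WT range. In the fit, the log2 fold change of bleomycin WT over saline WT was 1.63 (SE 0.70, 95% interval 0.15 to 3.11, p 0.0327, edgeR adjusted p 0.307). Without saline WT 2 and bleomycin WT 4 it was 2.37 (SE 0.63, 95% interval 0.97 to 3.76, p 0.00343, edgeR adjusted p 0.143), from 526 ± 253 CPM in bleomycin WT, against 102 ± 41.9 CPM in saline WT (SD, 3 libraries each), and the groups then did not overlap. In bleomycin KO the level was 235 ± 161 CPM against 603 ± 257 CPM in bleomycin WT (mean ± SD of 4 libraries), a log2 fold change of -1.36 (SE 0.68, 95% interval -2.80 to 0.09, p 0.0636, edgeR adjusted p 0.9998). Within bleomycin KO, Cebpa and Cebpb ranked the 4 libraries in the same order. That is also the order of their total counts (16842991, 15472450, 13137078 and 8514384 in bleomycin KO 1 to 4). Of the Cebpb exon, 312 bases (20.7%) are shared with exons of Tmem189 on the opposite strand, and the library kit does not mark strand. Tmem189 was at 117 ± 21.0 CPM in bleomycin KO, against 173 ± 78.0 CPM in bleomycin WT, and, in saline WT, 38.3 ± 15.2 CPM (mean ± SD of 4 libraries). It differed in the same direction as Cebpb, and its part in the Cebpb counts was not tested.

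Irf8 (ENSMUSG00000041515, chromosome 8, 120736358 to 120756694, plus strand) drives the monocyte and dendritic cell branches. It had 287, 310, 266 and 290 CPM in bleomycin KO 1 to 4, 279, 429, 240 and 107 CPM in bleomycin WT 1 to 4, and 312, 151, 180 and 291 CPM in saline WT 1 to 4. The bleomycin KO libraries had a coefficient of variation of 6.23%, the smallest of any factor in any group, against 50.1% in bleomycin WT, where bleomycin WT 4 was lowest. Log2 fold changes were 0.16 (SE 0.45) for bleomycin WT over saline WT, 0.13 (SE 0.45) for bleomycin KO over bleomycin WT and 0.29 (SE 0.45) for bleomycin KO over saline WT. The 95% intervals of these, from -0.83 at the lowest to 1.25 at the highest, leave room for differences of up to about that size, and the first changed sign with other scalings.

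Irf4 (ENSMUSG00000021356, chromosome 13, 30749226 to 30766976, plus strand), an IRF induced by IL-4 and needed for plasma cells and type 2 dendritic cells as well, had 47.2, 45.5, 16.6 and 38.6 CPM in bleomycin KO 1 to 4, 34.8, 49.8, 3.41 and 9.95 CPM in bleomycin WT 1 to 4, and 51.6, 0, 19.3 and 14.0 CPM in saline WT 1 to 4. The 3 groups overlapped, and bleomycin WT was split between a pair of libraries above 30 CPM and a pair below 10 CPM. The count of 0 in saline WT 2 allows up to 32.4 CPM, so it does not set that library apart. The log2 fold changes were 0.59 (SE 0.83) for bleomycin KO over bleomycin WT and 0.04 (SE 0.84) for bleomycin WT over saline WT; the second changed sign with other scalings, as given below. B and plasma cell markers summed to 795 to 1814 in bleomycin KO, 399 to 1482 in bleomycin WT and 735 to 2790 CPM in saline WT, and their part in the Irf4 counts was not tested.

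Klf2 (ENSMUSG00000055148, chromosome 8, 72319033 to 72321656, plus strand) is a factor of quiescent leukocytes and of endothelium under flow. It had 60.9, 59.3, 32.6 and 40.6 CPM in bleomycin KO 1 to 4, 76.4, 51.3, 69.1 and 22.4 CPM in bleomycin WT 1 to 4, and 72.0, 292, 86.7 and 54.6 CPM in saline WT 1 to 4. Saline WT 2 stood far above all other libraries. The log2 fold change was -1.12 (SE 0.61, edgeR adjusted p 0.405) for bleomycin WT over saline WT and -1.30 (SE 0.62, 95% interval -2.60 to 0.01, p 0.0519, edgeR adjusted p 0.554) for bleomycin KO over saline WT. Without saline WT 2 and bleomycin WT 4 these were -0.14 (SE 0.32) and -0.57 (SE 0.29). The endothelial markers summed to 87.7 to 198 in bleomycin KO, 108 to 809 in bleomycin WT and 270 to 537 CPM in saline WT, and their part in the Klf2 counts was not tested.

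Klf4 (ENSMUSG00000003032, chromosome 4, 55527143 to 55532466, minus strand) acts in monocyte differentiation and, with STAT6, in alternative activation. It had 108, 39.1, 28.8 and 40.1 CPM in bleomycin KO 1 to 4, 63.4, 120, 51.9 and 181 CPM in bleomycin WT 1 to 4, and 28.2, 43.2, 35.8 and 48.4 CPM in saline WT 1 to 4. Bleomycin WT was wholly above saline WT, while 3 of the 4 bleomycin KO libraries lay within the saline WT range and bleomycin KO 1 above it. The margin is narrow, as the saline WT 2 value of 43.2 CPM rests on 4 counts, and by library totals it would lie above bleomycin WT 3. Each count there is worth 10.8 CPM, and bleomycin WT 3 had 51.9 CPM. The fitted log2 change of bleomycin WT over saline WT was 1.44 (SE 0.60, 95% interval 0.17 to 2.70, p 0.0282, edgeR adjusted p 0.296), and 1.04 (SE 0.50, edgeR adjusted p 0.379) without saline WT 2 and bleomycin WT 4. That of bleomycin KO over bleomycin WT was -0.95 (SE 0.57, 95% interval -2.16 to 0.26, edgeR adjusted p 0.9998), and -0.54 (SE 0.46) in the 10 libraries.

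Zeb2 (ENSMUSG00000026872, chromosome 2, 44983632 to 45117395, minus strand) is a repressor that helps keep the tissue identity of macrophages. It had 356, 197, 261 and 302 CPM in bleomycin KO 1 to 4, 250, 403, 305 and 586 CPM in bleomycin WT 1 to 4, and 170, 216, 218 and 197 CPM in saline WT 1 to 4. Bleomycin WT lay wholly above saline WT, whose libraries spanned no more than a 1.28-fold range. The saline WT 2 value of 216 CPM rests on 20 counts, against 250 CPM in bleomycin WT 1, and by library totals it would lie above that library. In the fit, the log2 fold change was 0.95 (SE 0.41, 95% interval 0.08 to 1.82, p 0.0339, edgeR adjusted p 0.310) for bleomycin WT over saline WT, and 0.69 (SE 0.25, edgeR adjusted p 0.267) without saline WT 2 and bleomycin WT 4. It was -0.47 (SE 0.40) for bleomycin KO over bleomycin WT, and -0.19 (SE 0.23) in the 10 libraries. Zeb2 shares 379 exonic bases (3.31%) with its antisense transcript Zeb2os, which was at 15.6 ± 2.59 CPM in bleomycin KO, against 9.87 ± 5.48 CPM in bleomycin WT, and, in saline WT, 17.2 ± 10.8 CPM (mean ± SD of 4 libraries).

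Egr2 (ENSMUSG00000037868, chromosome 10, 67535475 to 67542188, plus strand) is a zinc finger factor induced by growth factors and by IL-4, and in mouse it marks alveolar macrophages and the monocyte-derived cells that replace them. It had 365, 302, 234 and 284 CPM in bleomycin KO 1 to 4, 305, 353, 165 and 98.5 CPM in bleomycin WT 1 to 4, and 90.7, 0, 129 and 190 CPM in saline WT 1 to 4. Every bleomycin KO library lay above every saline WT library, and bleomycin WT 3 and 4 lay inside the saline WT range; the count of 0 in saline WT 2 allows up to 32.4 CPM, below every other library. The log2 fold change was 1.45 (SE 0.67, 95% interval 0.03 to 2.88, p 0.0464, edgeR adjusted p 0.547) for bleomycin KO over saline WT, 1.09 (SE 0.67, edgeR adjusted p 0.456) for bleomycin WT over saline WT and 0.36 (SE 0.66) for bleomycin KO over bleomycin WT, or 0.12 (SE 0.30) in the 10 libraries. There, bleomycin KO had 298 ± 50.2 CPM (SD, n = 4) and saline WT 139 ± 48.4 CPM (SD, n = 3), a log2 fold change of 1.10 (SE 0.31, p 0.00504, edgeR adjusted p 0.137). All 3 of these differences kept their direction in each of the 21 alternative fits.

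Bhlhe40 (ENSMUSG00000030103, chromosome 6, 108660629 to 108666925, plus strand) encodes a repressor that in mouse sustains the proliferation of resident peritoneal macrophages. Its mean CPM was the highest of the 10 in both bleomycin groups and second to Spi1 in saline WT. It had 1102, 851, 594 and 738 CPM in bleomycin KO 1 to 4, 857, 1342, 466 and 614 CPM in bleomycin WT 1 to 4, and 532, 162, 532 and 531 CPM in saline WT 1 to 4. Saline WT 1, 3 and 4 were almost equal, saline WT 2 (15 counts) was lower, and of the 8 bleomycin libraries 7 lay above the saline WT libraries and bleomycin WT 3 (466 CPM) below 3 of them. The log2 fold changes over saline WT were 0.89 (SE 0.46, edgeR adjusted p 0.603) for bleomycin KO and 0.89 (SE 0.46, edgeR adjusted p 0.380) for bleomycin WT. Between bleomycin KO and bleomycin WT it was 0.00 (SE 0.45, 95% interval -0.96 to 0.96). The antisense transcript 0610040F04Rik shares 118 exonic bases (3.72%) with it and was at 26.9 ± 7.26 CPM in bleomycin KO, against 22.4 ± 18.8 CPM in bleomycin WT, and, in saline WT, 13.8 ± 9.63 CPM (mean ± SD of 4 libraries).

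**Figure D3:**
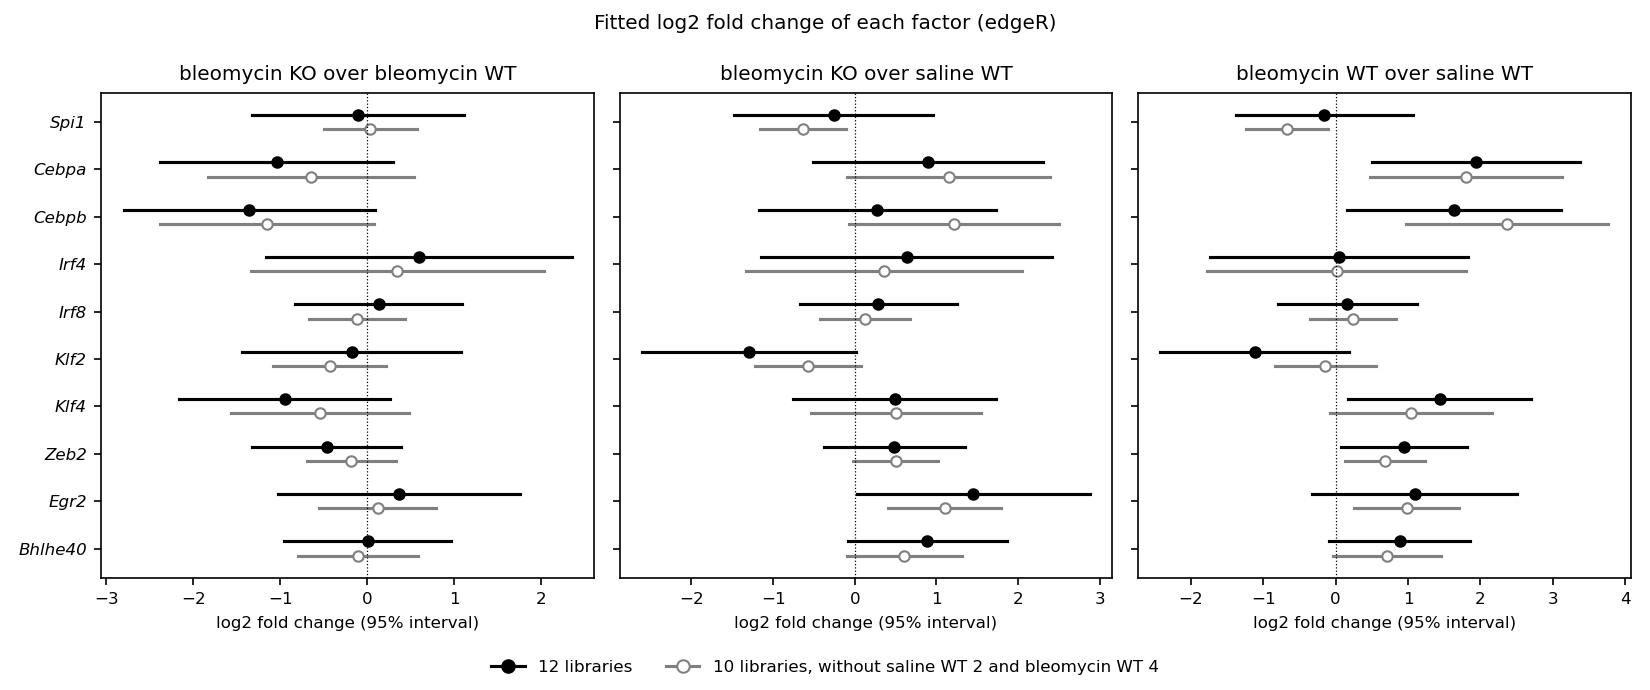
Fitted log2 fold change (edgeR) of each factor with its 95% interval in the 3 comparisons; black, all 12 libraries; grey, 10 libraries without saline WT 2 and bleomycin WT 4. For bleomycin WT over saline WT the black intervals of Cebpa, Cebpb, Klf4 and Zeb2 lie above 0, and for bleomycin KO over bleomycin WT every interval spans 0.

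Ratios of same-family factors within a library need no scaling between libraries and were taken from counts per kb of exon. Klf4 over Klf2 was 1.08, 0.402, 0.538 and 0.603 in bleomycin KO 1 to 4, 0.506, 1.43, 0.459 and 4.92 in bleomycin WT 1 to 4, and 0.239, 0.0903, 0.252 and 0.540 in saline WT 1 to 4. The saline WT values were mostly the lower ones, with saline WT 4 inside both bleomycin ranges, and the highest ratio was that of bleomycin WT 4. Cebpb over Cebpa was 9.52, 8.64, 6.40 and 6.10 in bleomycin KO 1 to 4, 22.0, 4.05, 15.5 and 8.40 in bleomycin WT 1 to 4, and 4.73, 16.8, 16.4 and 9.03 in saline WT 1 to 4. Cebpb was thus the more abundant of the pair in all 12 libraries, and the bleomycin KO ratios lay inside the range of both other groups. Irf8 over Irf4 was 8.43, 9.45, 22.2 and 10.4 in bleomycin KO 1 to 4, 11.1, 11.9, 97.8 and 14.9 in bleomycin WT 1 to 4, and 8.38, 13.0 and 28.8 in saline WT 1, 3 and 4; saline WT 2 held 0 Irf4 counts and gives no ratio. Irf8 exceeded Irf4 in each of these 11 libraries, and the groups overlapped. These ratios were not tested.

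**Figure D4:**
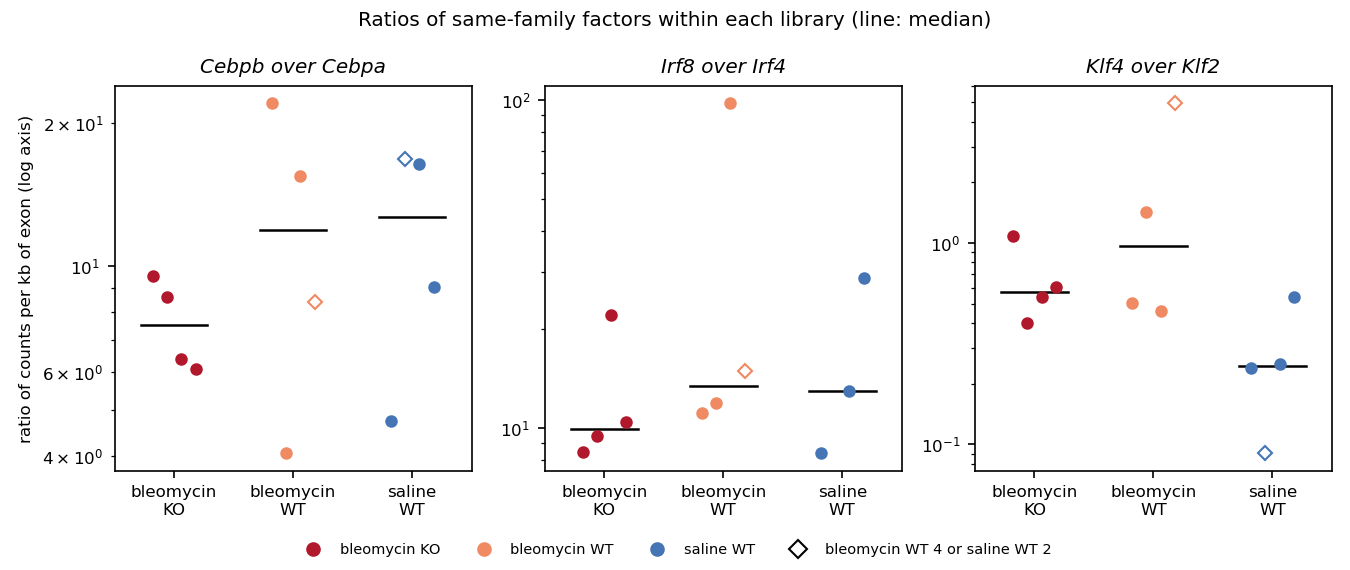
Ratio of counts per kb of exon (log axis) of Cebpb over Cebpa, Irf8 over Irf4 and Klf4 over Klf2 in each library of bleomycin KO, bleomycin WT and saline WT; lines are medians and open diamonds are bleomycin WT 4 and saline WT 2. Klf4 over Klf2 is at most 0.540 in saline WT and reaches 1.08 in bleomycin KO and 4.92 in bleomycin WT.

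Bleomycin WT 4 divided the factors. Within its group, in TMM-scaled CPM, it was the highest library for 5 of the 10 (Spi1, Cebpa, Cebpb, Klf4 and Zeb2) and the lowest for 3 (Irf8, Klf2 and Egr2). These ranks depend on the scaling, as its factor of 0.579 raises every CPM in it, and ranks by library totals were not examined. Some genes of the lists described below, chosen there by their small p, were far higher in it. Others, such as Id2 (453 CPM against 575 to 817 CPM) and Cebpz (32.3 CPM against 52.1 to 74.0 CPM), were lower. Maf, a factor of resident macrophages, had 3353 CPM in bleomycin WT 4 and 30.6 to 42.1 CPM in bleomycin WT 1 to 3. Bhlhe41, the close relative of Bhlhe40, had 1350 CPM there and 25.2 to 38.5 CPM in the other 3. Klf13 had 2005 CPM against 54.2 to 78.6 CPM, and Kdm6b, a histone demethylase upstream of Irf4, had 1474 CPM against 33.9 to 75.0 CPM. Saline WT 2 was, in TMM-scaled CPM, the lowest library of its group for 5 factors (Spi1, Irf4, Irf8, Egr2 and Bhlhe40) and the highest for 3 (Cebpa, Cebpb and Klf2). Its scaling factor of 1.54 lowers every CPM in it.

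Other factors of the same families and of myeloid cells, and partners and regulators, were listed beside these 10. None of them passed in the edgeR fit of 12 libraries or in that of 10. The other alternative fits were read only for the 2 genes of smallest p in each list, in the comparison that picked them, and some of these passed. Without a filter on low counts Klf13 and Maf passed in bleomycin WT over saline WT and in bleomycin KO over bleomycin WT, and Bhlhe41 and Kdm6b in bleomycin KO over bleomycin WT, all genes with a single high library, bleomycin WT 4. In that fit 358 of 40764 genes passed higher in bleomycin WT over saline WT, and 242 passed lower in bleomycin KO over bleomycin WT. With DESeq2, Cebpz and Trib1 passed as lower in bleomycin WT than in saline WT, where 331 of 16679 genes passed lower. Of 32 same-family factors 27 were tested and 0 passed in any comparison, with median log2 fold changes of -0.16 for bleomycin WT over saline WT, -0.07 for bleomycin KO over bleomycin WT and -0.04 for bleomycin KO over saline WT. The smallest p values were those of Klf13 (log2 fold change 3.43, SE 1.04, carried by bleomycin WT 4) and of Cebpz, a CCAAT-binding protein outside the leucine zipper family. Cebpz was at 74.2 ± 7.35 CPM in bleomycin KO, against 53.5 ± 17.1 CPM in bleomycin WT, and, in saline WT, 143 ± 50.6 CPM (mean ± SD of 4 libraries), with both bleomycin groups wholly below saline WT and log2 fold changes over saline WT of -0.92 (SE 0.46) for bleomycin KO and -1.39 (SE 0.47, edgeR adjusted p 0.238) for bleomycin WT. In bleomycin KO over bleomycin WT, Klf13 (-3.48, SE 1.02) and Bhlhe41 (-3.81, SE 1.17) had the smallest p, and in bleomycin KO over saline WT Klf7 (-1.11, SE 0.56) and Cebpz. In the 10 libraries Klf13 was at 0.44 for bleomycin WT over saline WT and -0.34 for bleomycin KO over bleomycin WT, and Bhlhe41 at -0.23 for the second of these.

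Of 35 other myeloid factors all 35 were tested and 0 passed, with medians of 0.39 for bleomycin WT over saline WT, -0.25 for bleomycin KO over bleomycin WT and 0.01 for bleomycin KO over saline WT. Tfec, a MiT/TFE factor of macrophages, was at 63.4 ± 5.19 CPM in bleomycin KO, against 100 ± 78.9 CPM in bleomycin WT, and, in saline WT, 20.1 ± 20.5 CPM (mean ± SD of 4 libraries). In TMM-scaled CPM both bleomycin groups lay wholly above saline WT (log2 fold changes of 1.46, SE 0.68, for bleomycin KO and 2.11, SE 0.70, edgeR adjusted p 0.232, for bleomycin WT). For bleomycin WT the margin was narrow, with 49.2 CPM in bleomycin WT 2 against 48.5 CPM in saline WT 3. By library totals these would change order. Id2, an inhibitor of helix-loop-helix factors, was at 731 ± 92.0 CPM in bleomycin KO and 348 ± 207 CPM in saline WT (log2 fold change 1.05, SE 0.52). Maf had log2 fold changes of 3.91 (SE 1.35) for bleomycin WT over saline WT and -4.70 (SE 1.36) for bleomycin KO over bleomycin WT, and Mitf of -2.36 (SE 1.03) for bleomycin KO over bleomycin WT; both rest on bleomycin WT 4. Maf was -0.49 for bleomycin WT over saline WT without that library. Tfec in the 10 libraries was at 1.16 for bleomycin WT over saline WT and Id2 at 0.69 for bleomycin KO over saline WT.

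Partners and regulators of the 10 factors, 16 genes of which all 16 were tested and 0 passed, had medians of 0.55 for bleomycin WT over saline WT, -0.13 for bleomycin KO over bleomycin WT and 0.15 for bleomycin KO over saline WT. Trib1, which directs C/EBPα to degradation, was at 131 ± 42.8 CPM in bleomycin KO, against 106 ± 48.8 CPM in bleomycin WT, and, in saline WT, 294 ± 157 CPM (mean ± SD of 4 libraries; log2 fold changes over saline WT of -1.15, SE 0.51, and -1.45, SE 0.51, edgeR adjusted p 0.521 and 0.247). Ctbp1, a corepressor that binds ZEB2, was at 81.1 ± 34.0 CPM in bleomycin KO, against 129 ± 4.95 CPM in bleomycin WT, and, in saline WT, 46.0 ± 21.8 CPM, with bleomycin WT wholly above saline WT (log2 fold change 1.42, SE 0.50, edgeR adjusted p 0.248). Kdm6b (-2.74, SE 0.97) and Rfwd2, the ubiquitin ligase Cop1 that works with Trib1 (-2.61, SE 1.04), had the smallest p of the list in bleomycin KO over bleomycin WT. Both rest on bleomycin WT 4, where Rfwd2 had 46.4 CPM against 1.67 to 5.39 CPM in bleomycin WT 1 to 3. In the 10 libraries Kdm6b was at 0.24 and Rfwd2 at -0.60. Trib1 in the 10 libraries was at -0.78 for bleomycin KO over saline WT and -0.94 for bleomycin WT over saline WT.

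Of 13 macrophage genes known to be bound by PU.1, 0 passed in the filtered edgeR fit of 12 libraries. Their medians were 0.31 for bleomycin WT over saline WT, 0.17 for bleomycin KO over bleomycin WT and 0.42 for bleomycin KO over saline WT. Msr1, a scavenger receptor, was at 497 ± 35.1 CPM in bleomycin KO, against 552 ± 309 CPM in bleomycin WT, and, in saline WT, 97.6 ± 29.7 CPM (mean ± SD of 4 libraries; log2 fold changes over saline WT of 2.32, SE 0.46, and 2.47, SE 0.46, edgeR adjusted p 0.171 and 0.101). Cd68, a lysosomal membrane protein, had a log2 fold change of 1.46 (SE 0.50) for bleomycin WT over saline WT, or 0.61 in the 10 libraries, with 4718 CPM in bleomycin WT 4 and 1516 to 2129 CPM in bleomycin WT 1 to 3. Fcgr1, the high-affinity IgG receptor, had 1.71 (SE 0.57) for bleomycin KO over saline WT. Without a filter on low counts Msr1 passed as higher in bleomycin WT than in saline WT (edgeR adjusted p 0.00568), where 358 of 40764 genes passed higher. In that fit Msr1 also passed as higher in bleomycin KO than in saline WT (edgeR adjusted p 0.0127), where 68 of 40764 genes passed higher. In the fit of 10 libraries Fcgr1 and Msr1 passed, higher in both bleomycin groups than in saline WT (edgeR, adjusted p under 0.05), as did 0.377% of all genes for bleomycin KO and 0.287% for bleomycin WT. In that fit Spi1 itself had log2 fold changes of -0.63 (SE 0.24) for bleomycin KO and -0.67 (SE 0.26) for bleomycin WT, with edgeR adjusted p of 0.225 and 0.295.

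Genes whose pattern was most like that of a factor were named by Pearson r of log2(CPM + 1) over the 11 libraries with over 1000000 counts, among 9342 genes with at least 10 CPM. These are the highest of many values over few libraries that share treatment and depth, and no p is given. For Spi1 they were Tnfrsf1a and Bin2 (r 0.96 each), for Cebpa Gnas (0.96) and Gm20721 (0.95), for Cebpb Arf6 (0.98) and Fam91a1 (0.95), for Irf8 Rangap1 (0.97) and Rps6kc1 (0.96), and for Irf4 Egr1 (0.84) and Amz1 (0.84). For Klf2 they were Klhl7 and Pdha1 (0.91 each), for Klf4 Tbc1d22a (0.95) and Slc39a11 (0.94), for Zeb2 Gm17122 (0.97) and Tomm40 (0.96), for Egr2 Hyou1 and Tle1 (0.93 each), and for Bhlhe40 Csrnp1 (0.92) and Siglec1 (0.86). None of the 10 factors was among the 2 genes most like another of them. Without bleomycin WT 4 the r of Klf2 with Klhl7 was 0.82 and that of Irf8 with Rps6kc1 0.89.

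Several of the 10 factors are also used by other cells. No marker of another cell type was called in the edgeR fit of 12 libraries. In the 10 libraries S100a8, S100a9, Retnlg, Sftpc, Egfl7 and Inmt fell in bleomycin KO against saline WT (0.266% of all genes did), and S100a9 and Inmt in bleomycin WT against saline WT (0.144%). Inmt does not stand for the 10 fibroblast markers. In the 12 libraries 7 of them were above 0 for bleomycin KO over saline WT (median 0.43) and 5 for bleomycin WT (median 0.16). Col3a1, the most abundant of them, had log2 fold changes over saline WT of 2.63 (SE 0.89) for bleomycin KO and 2.65 (SE 0.89) for bleomycin WT. Neutrophils use Cebpa and Cebpb. The 11 neutrophil markers summed to 1227 to 2002 in bleomycin KO, 568 to 1670 in bleomycin WT and 2678 to 30082 CPM in saline WT. This sum was lower in every bleomycin library than in any saline WT library, opposite in direction to the fitted changes of Cebpa and Cebpb. S100a9, the most abundant of them, averaged 570.0 ± 145 CPM in bleomycin KO, 343 ± 236 CPM in bleomycin WT, and, in saline WT, 5804 ± 5129 CPM (mean ± SD of 4 libraries). The 11 epithelial markers summed to 265 to 741 in bleomycin KO, 340 to 1005 in bleomycin WT and 1564 to 2418 CPM in saline WT, and epithelium uses Klf4 and Cebpa. Sftpc, a surfactant protein of alveolar epithelium, averaged 123 ± 105 CPM in bleomycin KO, 274 ± 245 CPM in bleomycin WT, and, in saline WT, 1182 ± 273 CPM (mean ± SD of 4 libraries). It does not stand for every epithelial marker. Of the 10 tested, 3 were above 0 for bleomycin KO over saline WT (median -0.69) and 3 for bleomycin WT (median -0.58). For bleomycin WT, 1 was higher and 4 lower at an unadjusted p under 0.05 (edgeR), against 8.47% and 6.19% of all genes. The 16 macrophage markers summed to 52527 to 72432 in bleomycin KO, 35894 to 55767 in bleomycin WT and 17187 to 37863 CPM in saline WT. Lyz2 alone averaged 42109, 31009 and 19982 CPM in these groups, so the sum does not stand for all 16. Over saline WT, 11 of the 16 were above 0 for bleomycin KO (51.7% of all genes) and 11 for bleomycin WT (52.9%). Cx3cr1 averaged 97.3 CPM in bleomycin KO and 57.0 CPM in bleomycin WT, against 343 CPM in saline WT. T and NK cell markers summed to 263 to 580, 291 to 996 and 54.0 to 404 CPM in bleomycin KO, bleomycin WT and saline WT, dendritic cell markers to 599 to 718, 511 to 778 and 508 to 1127 CPM, fibroblast markers to 146 to 526, 254 to 342 and 108 to 441 CPM, and eosinophil and mast cell markers to 132 to 243, 110 to 820 and 21.6 to 1814 CPM. No marker of these lists was at 0 throughout a group. The part of these cells in the levels of the 10 factors was not tested.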

How the data were processed

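Lung Cx3cr1+ macrophages from 3 groups of 4 libraries were sequenced in bulk. Per the labels' protocols, cDNA was made from 2 ng of RNA by Smart-Seq V4, libraries from 150 pg of cDNA by Nextera XT, which does not mark strand, and reads were single-end, 50 bases. The authors deposited raw whole-number counts per gene with an exonic length, and GSNAP, limma, Partek, GRCm38 and mm10 are named per the submitters' processing notes, their roles and versions being not given in the sources used here. A design text attached to the series concerns cultured lung epithelium and was set aside. The 10 factors and the lists of other genes were chosen with earlier results of these data known.

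Counts of 52636 genes were filtered by filterByExpr, scaled by TMM and fitted with edgeR 4.0.16 (R 4.3.3; robust quasi-likelihood, group as the only term, all 12 libraries); 95% intervals come from the fit's standard errors. Alternatives were RLE scaling, library totals, no filter, 2 groups only, a replicate block, each library left out, saline WT 2 and bleomycin WT 4 left out, limma-voom (3.58.1) with and without quality weights, and DESeq2 1.42.0. The common biological coefficient of variation was 0.862. Values at a floor of 3 counts cover counting error only. No 2 libraries of a group were alike within sampling noise (chi-square per degree of freedom at least 23.9 over 18 pairs). The fit was tested on data with known changes in genes of 20 CPM or more, 100 of them changed 16-fold and 100 changed 4-fold. In data simulated for bleomycin WT against saline WT it recovered 85% of the 16-fold and 14% of the 4-fold changes, with 4 false calls among 103. Simulated bleomycin KO against bleomycin WT gave 87% and 8%, with 4 false calls among 99. Simulated bleomycin KO against saline WT gave 86% and 16%, with 5 false calls among 107. Most 4-fold changes were thus missed in the simulated data. The simulated libraries were not compared with the real ones in scaling factors or deviant libraries. These recovery values therefore need not hold for the real fit.

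Named were all 10 factors, Il4ra, the 2 genes most like each factor, the 2 genes of smallest p in each list of other factors and comparison, and the 2 most abundant markers of each cell type, of which values of S100a9, Sftpc, Col3a1 and Lyz2 are printed. Sequences were matched by symbol to RefSeq (GRCm38.p6), and places are from GENCODE vM21. The deposited exonic length equals the sum of the deposited exon coordinates for all 52636 genes, which is a check within the deposited data.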

Additional observations from a re-analysis of the deposited data

Results flagged for a closer look

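Of 30 sets of 4 libraries examined, 1 for each factor and group, 3 held a library far from the other 3 of its group, by a rule that chance meets in about 1 in 20 groups. Klf2 stood at 292 CPM in saline WT 2, and the nearest saline WT library had 86.7 CPM. Klf4 stood at 108 CPM in bleomycin KO 1, and the nearest bleomycin KO library had 40.1 CPM. Bhlhe40 stood at 162 CPM in saline WT 2, and the nearest saline WT library had 531 CPM. Saline WT 2 is the library with 60598 counts, so its Klf2 value rests on 27 counts and its Bhlhe40 value on 15.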

How the results depend on the processing

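None of the 10 factors passed the adjusted threshold in any of 630 alternative values; the smallest adjusted p was 0.0544 (Cebpa, bleomycin WT over saline WT). Direction was kept in 193 of 210 values for bleomycin WT over saline WT, 193 of 210 for bleomycin KO over bleomycin WT and 204 of 210 for bleomycin KO over saline WT. Saline WT 2 limits depth: 3 counts there are 32.4 CPM, near or above the levels of Irf4 and Cebpa. In each alternative below the cause of a changed value was not tested.

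Counts of genes past the threshold are given for bleomycin WT over saline WT, then for bleomycin KO over saline WT. They were 4 and 3 in the edgeR fit of 12 libraries, 1 and 1 with RLE scaling, 1 and 1 with library totals, 0 and 1 with only the 2 groups compared, 6 and 12 with limma-voom, 319 and 232 with quality weights, and 512 and 370 with DESeq2. Without saline WT 2 and bleomycin WT 4 they were 81 (54 higher, 27 lower) and 121 (71 higher, 50 lower), and without a filter 780 (358 higher, 422 lower) and 694 (68 higher, 626 lower). Leaving out 1 library at a time gave 1 to 11 and 0 to 18, the highest of both without bleomycin WT 4. For bleomycin KO over bleomycin WT the count was 0 in all of these (31 higher and 616 lower at an unadjusted p under 0.05 with edgeR), except 243 without a filter.

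The replicate numbers do not pair the libraries: over 12 same-numbered pairs the correlation of deviations ran from -0.202 to 0.0665, with 0 over 0.1, and 1 library correlated best with its own number. With the replicate block the counts were 2 and 1, and 0 for bleomycin KO over bleomycin WT; Spi1 was 0.045 and Irf4 -0.37 for bleomycin WT over saline WT.

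The median log2 change of all genes was 0.08 for bleomycin WT over saline WT, -0.09 with RLE scaling and -0.24 with library totals; for bleomycin KO over bleomycin WT it was -0.01, 0.0091 and 0.12, and for bleomycin KO over saline WT 0.04, -0.12 and -0.14. Log2 changes of opposite sign to those reported were as follows. For bleomycin WT over saline WT, Irf4 was -0.22 with RLE scaling, -0.28 with library totals, -0.37 with limma-voom, -0.29 with quality weights and -0.21 with DESeq2, and Irf8 -0.059, -0.18 and -0.067 with RLE, totals and DESeq2. For bleomycin KO over bleomycin WT, Spi1 was 0.13 with totals, 0.035 without saline WT 2 and bleomycin WT 4 and 0.16 with quality weights; Il4ra was 0.0017 with totals; Bhlhe40 was -0.0044 with 2 groups. In the 10 libraries Bhlhe40 was -0.11, Irf8 -0.12 and Kdm6b 0.24, and Kdm6b was 0.45 with quality weights. For bleomycin KO over saline WT, Cebpb was -0.18 with totals and -0.0099 with DESeq2.

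With 1 library left out, values for bleomycin WT over saline WT ran from -0.45 to 0.31 for Spi1, -0.52 to 0.83 for Irf4, -0.14 to 0.53 for Irf8 and -0.49 to 4.82 for Maf. For bleomycin KO over bleomycin WT they ran from -0.20 to 0.0092 for Spi1, -0.15 to 0.47 for Irf8, -0.44 to 0.017 for Klf2, -0.20 to 0.36 for Bhlhe40, -0.38 to 0.34 for Il4ra and -3.10 to 0.22 for Kdm6b. For bleomycin KO over saline WT they ran from -0.55 to 0.21 for Spi1, -0.21 to 1.31 for Cebpb and -0.068 to 0.73 for Klf4.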
